A study of Mus musculus with 6 samples.

Results

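The genes described here carry out fatty acid oxidation and ketone body synthesis in mouse liver, together with the PPAR-alpha programme that drives their transcription. The list named 32 genes by pathway membership, with earlier results of these data known. Of these, 30 had a probe set with exactly 1 gene symbol on the array, out of 19938 genes measured in all. Acsl1 and Ucp2 had no such probe set under their symbol or an alias and were not analysed here. The livers came from male C57BL6 mice aged 10 weeks, without a stated genetic modification. All mice had been fasted for 16 h, controls included, so every value was measured in the fasted state. One group of 3 samples was taken 1 h after an intraperitoneal saline injection. The other group of 3 was taken 1 h after each mouse had received 100 ng of interleukin-6 (IL-6) by the same route. Each sample was hybridised to its own 1-colour Affymetrix array. Values are log2 expression, on which a difference of 1 is a doubling.

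In the fasted liver, fatty acids released from fat tissue are taken up, joined to coenzyme A and carried into mitochondria on carnitine. There, and in peroxisomes, they are shortened by beta-oxidation, and the resulting acetyl-CoA is turned into ketone bodies for other organs. PPAR-alpha is a nuclear receptor that binds fatty acids, pairs with RXR and activates many of these genes through a direct repeat of a short half-site. IL-6 is a cytokine whose receptor activates the transcription factor STAT3. The comparison asks whether these metabolic transcripts differ early after IL-6.

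No member passed the test. After adjustment over all genes, limma called 0 of 30 members at adjusted p under 0.05, beside 0.421% of all genes, and the lowest adjusted p of a member was 0.505. At the looser unadjusted p under 0.05, 3 members were higher and 0 lower, beside 3.78% of all genes higher and 2.83% lower. In 3 members the IL-6 arrays lay wholly above the saline arrays and in 0 wholly below, beside 6.15% and 5.48% of all genes. The arrays did carry a response to the cytokine. Socs3, an inhibitor of JAK-STAT signalling, differed by 3.15 ± 0.11 on the log2 scale (standard error, n = 3 arrays per group, limma adjusted p = 1.45e-06).

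The measured differences were mostly small. The median difference of the members, IL-6 minus saline, was 0.04 on the log2 scale, beside 0.003 over all genes, and 25 of 30 were above 0, beside 10188 of 19938. The 95% limma interval lay within a log2 difference of 0.5 in either direction (1.41-fold) for 27 members, or 90.0%, beside 94.3% of all genes, and within 1 for 29. The exceptions at 0.5 were Cd36, Acot2 and Vnn1, and Acot2 was also the exception at 1. Over the members, no interval reached lower than 1.15-fold below saline or higher than 2.06-fold above it. In whole tissue, fewer cells of a type and less RNA per cell cannot be told apart.

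**Figure D1:**
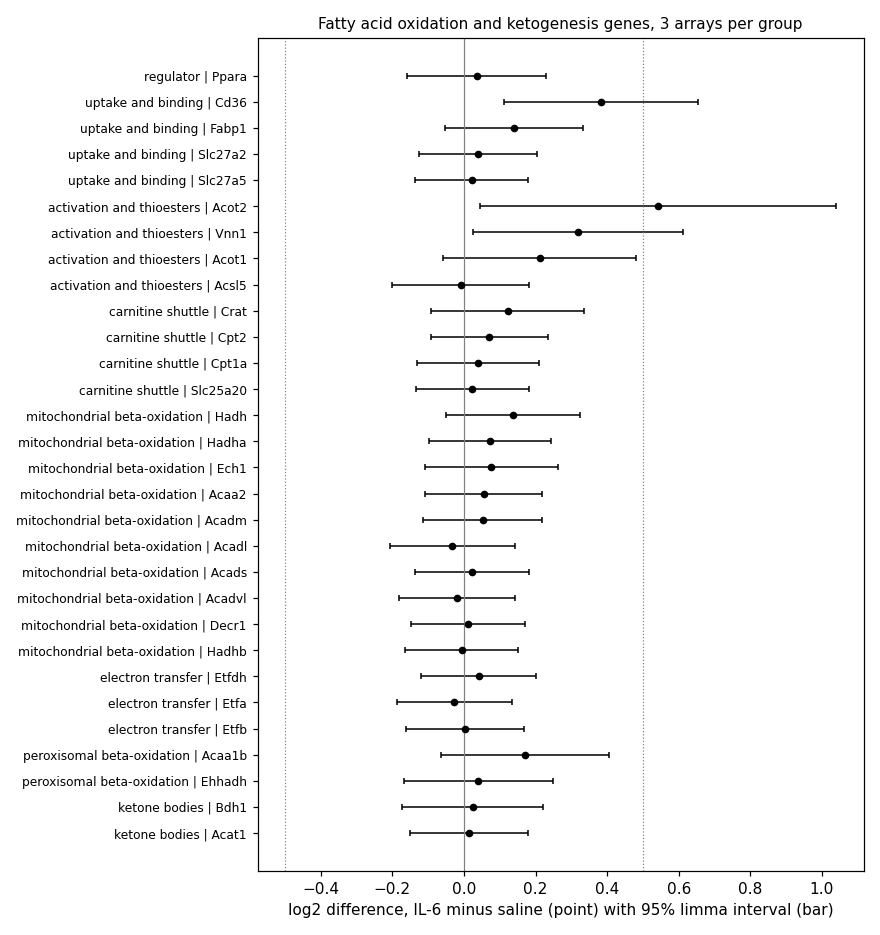
Log2 difference between IL-6 and saline arrays for the 30 measured members, grouped by role, with the 95% limma interval (3 arrays per group). Dotted lines mark a difference of 0.5 in each direction. The intervals of Cd36, Acot2 and Vnn1 lie above 0 and cross the upper line, and the other 27 lie between the lines.

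Some arrays differed from others of their own group across the members. Saline replicate 2 held the lowest of the 6 values in 19 of 30 members, a share of 63.3%, beside 19.4% of all genes. Relative to the saline mean, the members averaged -0.09 there, 0.02 in saline replicate 1 and 0.07 in saline replicate 3. After IL-6 the averages were 0.07, 0.12 and 0.07 in replicates 1, 2 and 3. The averages of saline replicate 3 and of IL-6 replicates 1 and 3 lay close together. Without saline replicate 2, 19 of 30 differences were above 0 and the median was 0.03. Over all genes, saline replicate 2 and IL-6 replicate 3 scored lowest on the second principal component, at -11.6 and -13.2 against 1.83 to 9.65 elsewhere. The members were not low on IL-6 replicate 3, which held the lowest value in 1 member and the highest in 9. The tissue label was matched by its markers. All 9 measured hepatocyte markers had mean levels of 10.7 or more, and their average ran from 12.6 to 12.7 in both groups. Unlike the members, these markers averaged highest among the saline arrays in replicate 2.

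**Figure D2:**
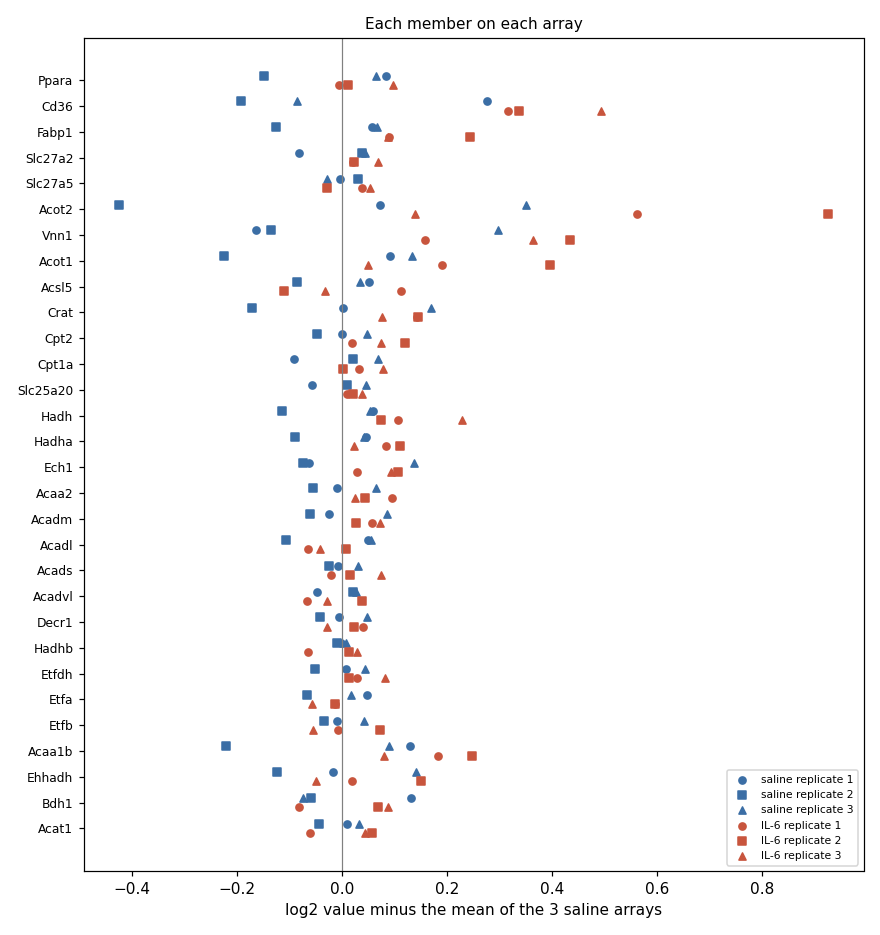
Each of the 30 members on each of the 6 arrays, as the log2 value minus the mean of the 3 saline arrays (blue, saline; red, IL-6; circle, square and triangle are replicates 1, 2 and 3). Saline replicate 2 (blue squares) is the lowest array in 19 members, and the wide spreads are those of Acot2, Vnn1, Cd36 and Acot1.

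Promoter sequence was examined because PPAR-alpha acts on this pathway through DNA. RefSeq windows on build GRCm38.p6, from 250 bases before to 50 after a gene's start, were held for 24 of the 30 members. The motif searched was the direct repeat AGGTCANAGGTCA on both strands, with up to 2 mismatches among its 12 fixed letters. It was found in 4 of these 24 members, a share of 16.7%, beside 4.4% of 27025 genes with a window of the same length. With at most 1 mismatch it was found in 1 member, Fabp1, beside 0.644% of genes. The STAT motif TTCNNNGAA, the same on both strands, was found in 3 of 24, beside 9.55% of genes. These 3 were Cpt2 and the neighbours Hadha and Hadhb, whose windows overlap. The repeat and the STAT motif were counted independently of each other, and a match is a description of letters and not a measured binding site.

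The 4 windows with a direct repeat are printed 5′ to 3′ on the gene's strand, with the matched bases in capitals. In Cd36 and Fabp1 the IL-6 arrays lay above all saline arrays, as in 6.15% of all genes, and in Etfa and Slc25a20 the groups overlapped. Hadh, the other member without overlap, had no match. A link between the repeat and the measured differences was not tested. The window of Fabp1 lies at chr6:71199629-71199928 on the plus strand, that of Cd36 at chr5:17835847-17836146 on the minus strand, that of Etfa at chr9:55512194-55512493 on the minus strand and that of Slc25a20 at chr9:108661886-108662185 on the plus strand. Counting the first transcribed base as 0, the matches begin at -67 in Fabp1, -63 in Cd36, -77 in Etfa and 6 in Slc25a20. In Fabp1, Cd36 and Etfa the repeat is read on the opposite strand.
Fabp1: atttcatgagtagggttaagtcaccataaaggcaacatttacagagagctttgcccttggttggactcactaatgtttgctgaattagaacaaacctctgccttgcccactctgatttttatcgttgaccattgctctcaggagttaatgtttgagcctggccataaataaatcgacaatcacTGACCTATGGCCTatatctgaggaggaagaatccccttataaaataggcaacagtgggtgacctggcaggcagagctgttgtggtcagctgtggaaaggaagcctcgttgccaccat
Cd36: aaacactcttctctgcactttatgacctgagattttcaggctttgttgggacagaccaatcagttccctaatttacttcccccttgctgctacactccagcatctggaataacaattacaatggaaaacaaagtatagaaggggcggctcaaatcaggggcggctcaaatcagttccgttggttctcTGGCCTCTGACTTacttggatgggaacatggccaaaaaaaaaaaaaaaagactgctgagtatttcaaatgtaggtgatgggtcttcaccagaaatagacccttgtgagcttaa
Etfa: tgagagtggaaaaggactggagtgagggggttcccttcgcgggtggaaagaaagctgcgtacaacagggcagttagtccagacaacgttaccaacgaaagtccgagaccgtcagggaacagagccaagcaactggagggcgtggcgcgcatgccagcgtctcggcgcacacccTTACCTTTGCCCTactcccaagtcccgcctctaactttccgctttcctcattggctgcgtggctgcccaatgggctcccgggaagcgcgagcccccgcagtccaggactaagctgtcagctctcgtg
Slc25a20: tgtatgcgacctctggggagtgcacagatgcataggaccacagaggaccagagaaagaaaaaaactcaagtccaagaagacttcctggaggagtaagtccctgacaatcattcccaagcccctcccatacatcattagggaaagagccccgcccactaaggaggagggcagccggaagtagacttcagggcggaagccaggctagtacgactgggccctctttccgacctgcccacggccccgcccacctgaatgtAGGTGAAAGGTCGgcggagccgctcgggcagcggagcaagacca

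Ppara, the gene of the receptor itself, was measured at 9.53, 9.30 and 9.51 on the saline arrays and at 9.44, 9.46 and 9.55 on the IL-6 arrays. The groups overlapped, and saline replicate 2 was the lowest. The difference was 0.04 ± 0.09 on the log2 scale (standard error, limma adjusted p = 0.976), and its 95% interval ran from 0.896-fold to 1.17-fold.

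Among the genes for uptake and binding of fatty acids, the differences ran from 0.02 to 0.38 and all 4 were above 0. Cd36, a scavenger receptor that imports long-chain fatty acids, was measured at 9.14, 8.67 and 8.78 on the saline arrays and at 9.18, 9.20 and 9.35 on the IL-6 arrays. The 3 IL-6 values were above the 3 saline values, though saline replicate 1 lay only just below IL-6 replicate 1. The means were 8.86 ± 0.25 and 9.24 ± 0.10 (SD, n = 3), a difference of 0.38 ± 0.12 or 1.30-fold, which did not pass over all genes (limma adjusted p = 0.505). Leaving out single arrays gave 0.29 to 0.52, with limma adjusted p from 0.103 without saline replicate 1 to 0.831 without saline replicate 2. Without saline replicate 2 and IL-6 replicate 3 together, the difference was 0.23, more than 1.5 times smaller.

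Cd36 is also made by macrophages, endothelial cells and fat cells. The 12 Kupffer cell and macrophage markers averaged 6.25 to 6.41 on the saline arrays and 6.33 to 6.61 on the IL-6 arrays, and 10 of 12 differences were above 0 with 0 called. The 8 endothelial markers averaged 7.55 to 7.67 and 7.50 to 7.70, with 6 above 0 and 0 called. The 5 measured fat cell markers averaged 4.79 to 4.89 and 4.82 to 4.85, with 2 above 0 and 0 called, and 2 of the 5 lay below the 25th percentile of gene levels (4.59). Of the defining markers, Adipoq averaged 2.93 in saline, Plin1 5.56 and Fabp4 6.52. The part of these cells in the Cd36 values was not tested.

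Fabp1, which binds fatty acids in the hepatocyte cytosol and whose promoter window held the closest match to the repeat, was measured at 12.36, 12.18 and 12.37 in saline and at 12.40, 12.55 and 12.39 in IL-6. The groups did not overlap, but saline replicates 1 and 3 lay within 0.05 of IL-6 replicates 1 and 3. The difference was 0.14 ± 0.09 (limma adjusted p = 0.872), and it was 0.08 when saline replicate 2 was omitted and 0.09 when IL-6 replicate 2 was. Slc27a2, a very long-chain acyl-CoA synthetase and transporter, differed by 0.04 ± 0.07, and Slc27a5, which activates bile acids and fatty acids, by 0.02 ± 0.07. Neither interval reached above 1.15-fold.

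The widest spreads lay among the genes that make, split or break down coenzyme A and its thioesters. Acot2, a mitochondrial thioesterase that releases fatty acids from coenzyme A, was measured at 8.26, 7.77 and 8.54 in saline and at 8.75, 9.12 and 8.33 in IL-6. The groups overlapped, because IL-6 replicate 3 lay below saline replicate 3. The means were 8.19 ± 0.39 and 8.73 ± 0.39 (SD, n = 3), a difference of 0.54 ± 0.22 or 1.46-fold (limma adjusted p = 0.689). Omitting saline replicate 2 gave a difference of 0.33 and omitting IL-6 replicate 2 gave 0.35, each more than 1.5 times smaller, and 0.74 without IL-6 replicate 3.

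Acot1, the cytosolic relative of Acot2, was measured at 9.45, 9.13 and 9.49 in saline and at 9.55, 9.75 and 9.41 in IL-6. Its arrays stood in much the same order as those of Acot2, with saline replicate 2 lowest and IL-6 replicate 2 highest in both. Fabp1 and Acaa1b, outside this family, had the same lowest and highest arrays. For Acot1 the difference was 0.21 ± 0.12 (limma adjusted p = 0.854). Omitting saline replicate 2 gave 0.10 and omitting IL-6 replicate 2 gave 0.12. Acot1 and Acot2 are close relatives that lie near each other on chromosome 12, and whether their probes cross-hybridise was not tested.

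Vnn1, a pantetheinase that recycles the vitamin part of coenzyme A and a known PPAR-alpha target, was measured at 9.86, 9.89 and 10.32 in saline and at 10.18, 10.46 and 10.39 in IL-6. The groups overlapped through saline replicate 3, which lay above IL-6 replicate 1. The difference was 0.32 ± 0.13 or 1.25-fold (limma adjusted p = 0.692). It ran from 0.24 without saline replicate 1 to 0.47 without saline replicate 3. Acsl5, a long-chain acyl-CoA synthetase, differed by -0.01 ± 0.08.

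The 4 measured genes of this role averaged 0.26, 0.41 and 0.13 above the saline mean in replicates 1, 2 and 3 of IL-6. On the saline arrays they averaged 0.01, -0.22 and 0.20, so saline replicate 3 lay above IL-6 replicate 3. The Kupffer cell and macrophage markers were also highest in IL-6 replicate 2, at 0.28, against -0.01 and -0.00057 on the other IL-6 arrays. On saline replicates 1, 2 and 3 these markers averaged 0.07, 0.02 and -0.09. Saline replicate 3 was thus the lowest array for the markers but the highest saline array for the role. The part of these cells in the values of the role was not tested.

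**Figure D3:**
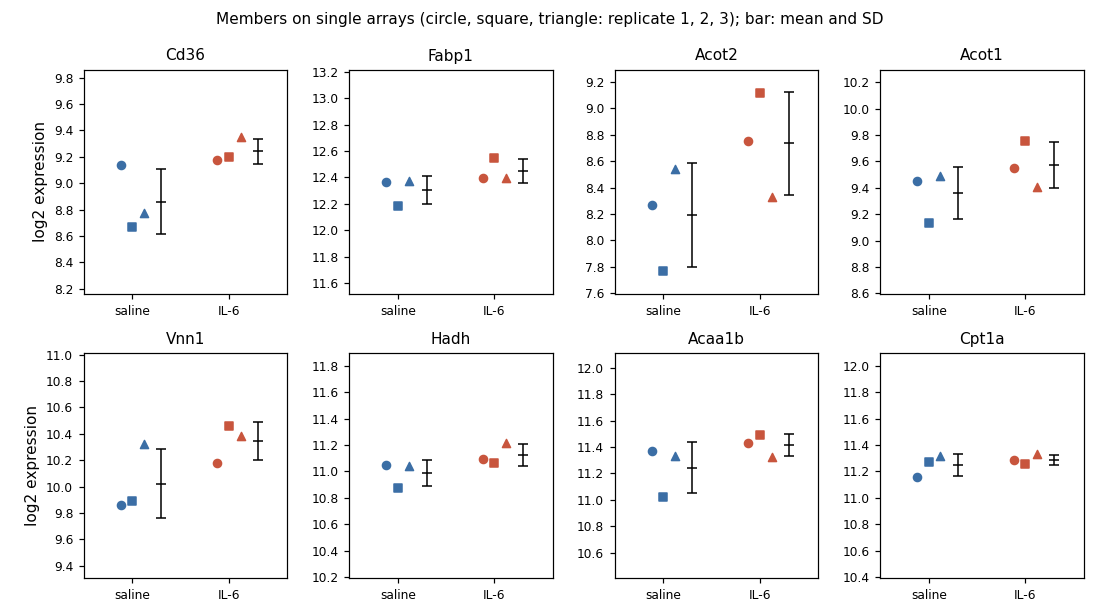
Log2 expression of 8 members on the single arrays, with the mean and SD of each group (n = 3) as a bar beside the points. Every panel spans the same range. Cd36, Fabp1 and Hadh have no overlap between groups, Acot2 has the widest spread within groups, and Cpt1a has group means of 11.25 and 11.29.

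The carnitine shuttle moves acyl groups across the mitochondrial membranes, and Cpt1a, on the outer membrane, is its rate-limiting entry step. Cpt1a was measured at 11.16, 11.27 and 11.32 in saline and at 11.28, 11.25 and 11.33 in IL-6. The groups overlapped almost fully. The difference was 0.04 ± 0.08 (limma adjusted p = 0.970), with an interval from 0.913-fold to 1.16-fold. Crat, which swaps short acyl groups between carnitine and coenzyme A, was measured at 9.35, 9.18 and 9.52 in saline and at 9.49, 9.49 and 9.42 in IL-6. Its saline values lay on both sides of the IL-6 values, and the difference was 0.12 ± 0.09 (limma adjusted p = 0.909). It was 0.04 without saline replicate 2 and 0.21 without saline replicate 3. Cpt2, the inner-membrane transferase, differed by 0.07 ± 0.07 and Slc25a20, the carrier that exchanges acylcarnitine for carnitine, by 0.02 ± 0.07.

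The 10 genes of mitochondrial beta-oxidation differed by -0.03 to 0.14, with a median of 0.04, and 7 were above 0. All 10 intervals lay within 0.5, and they reached at most to 1.15-fold lower and 1.25-fold higher. Hadh, the short-chain 3-hydroxyacyl-CoA dehydrogenase, was measured at 11.05, 10.87 and 11.04 in saline and at 11.09, 11.06 and 11.21 in IL-6. The IL-6 values lay above the saline values, with IL-6 replicate 2 only just above saline replicate 1. The difference was 0.14 ± 0.08 (limma adjusted p = 0.872). It was 0.08 when saline replicate 2 was omitted, 0.09 when IL-6 replicate 3 was, and 0.03 with both omitted.

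The acyl-CoA dehydrogenases, which take the first step for chains of different length, stayed near 0. Acadvl, for very long chains, differed by -0.02 ± 0.07, and Acadl, for long chains, by -0.03 ± 0.08. Acadm, for medium chains, differed by 0.05 ± 0.07 and Acads, for short chains, by 0.02 ± 0.07. Of the subunits of the trifunctional protein, which carries out the later steps for long chains, Hadha differed by 0.07 ± 0.08 and Hadhb by -0.01 ± 0.07. The other probe set of Hadhb had a difference of -0.02 ± 0.06. The thiolase Acaa2, which makes the last cut, differed by 0.05 ± 0.07. The helpers for unsaturated chains, the isomerase Ech1 and the reductase Decr1, differed by 0.08 ± 0.08 and 0.01 ± 0.07.

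Electron transfer from these dehydrogenases to the respiratory chain runs through the flavoprotein subunits Etfa and Etfb and the membrane enzyme Etfdh. Etfdh was measured at 11.31, 11.25 and 11.35 in saline and at 11.33, 11.32 and 11.39 in IL-6. The groups overlapped, with a difference of 0.04 ± 0.07 (limma adjusted p = 0.964). Etfa differed by -0.03 ± 0.07 and Etfb by 0.003 ± 0.073, and the 3 intervals stayed within 1.15-fold in either direction.

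Of the peroxisomal genes, Acaa1b, a thiolase, was measured at 11.37, 11.03 and 11.34 in saline and at 11.43, 11.49 and 11.32 in IL-6. Saline replicate 2 stood well below the other 5 arrays. The difference was 0.17 ± 0.10 (limma adjusted p = 0.872), and it was 0.06 without saline replicate 2. Ehhadh, the bifunctional enzyme, is a PPAR-alpha target often used as a readout of the receptor. It differed by 0.04 ± 0.09, with an interval from 0.890-fold to 1.19-fold. The close relative of Acaa1b, Acaa1a, had a difference of 0.09 ± 0.08, and probe cross-hybridisation was not tested here either.

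For ketone bodies, Bdh1, which reduces acetoacetate to beta-hydroxybutyrate, was measured at 9.24, 9.05 and 9.03 in saline and at 9.02, 9.17 and 9.19 in IL-6. The groups overlapped over most of their range, and the difference was 0.02 ± 0.09 (limma adjusted p = 0.981). Acat1, the mitochondrial acetoacetyl-CoA thiolase, differed by 0.01 ± 0.07. Both intervals stayed within 1.17-fold.

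**Figure D4:**
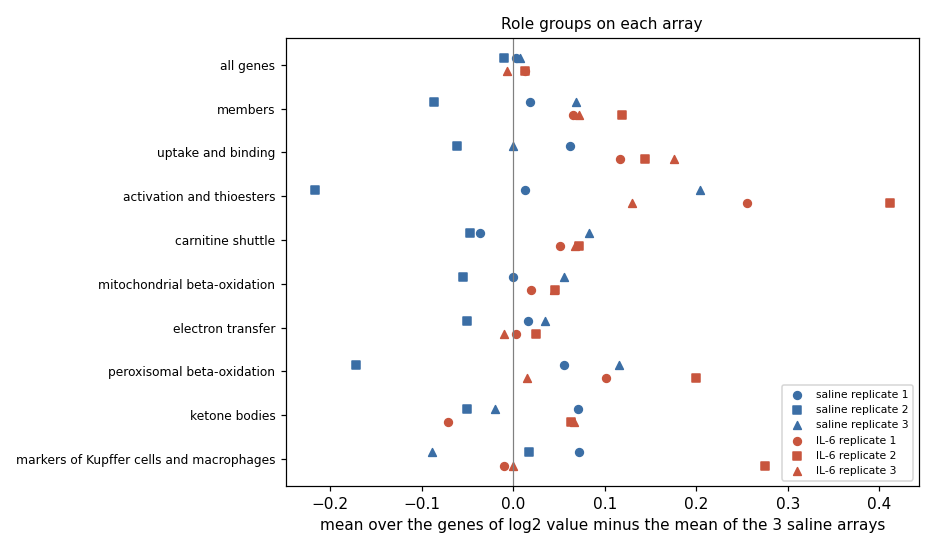
Mean over the genes of each role of the log2 value minus the saline mean, on each of the 6 arrays, with all genes above and Kupffer cell and macrophage markers below for comparison. Uptake and binding is the role whose 3 IL-6 averages (0.12 to 0.18) lie above the 3 saline averages (-0.06 to 0.06), and saline replicate 2 is the lowest array for the members as a whole at -0.09.

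A list of 100 other genes of the pathway, 90 of them measured, gave the setting of the members. In limma 0 of 90 were called, beside 0.421% of all genes. At unadjusted p under 0.05 there were 3 higher and 3 lower, a share of 6.67%, beside 6.62% of all genes. The groups did not overlap in 8.89% of the 90, beside 11.6% of all genes. The median difference was 0.03, and 54 of 90 were above 0. By list, the medians were -0.03 for 17 regulators and partners of PPAR-alpha, 0.06 for 28 other PPAR-alpha targets, 0.02 for 20 other mitochondrial genes, 0.04 for 17 other peroxisomal genes and 0.16 for 8 other ketone body genes. The ketone list had 7 of 8 differences above 0, none at unadjusted p under 0.05. Relative to the saline mean, it averaged 0.11, -0.13 and 0.03 on the saline arrays and 0.16, 0.14 and 0.06 on the IL-6 arrays. Saline replicate 2 was thus its lowest array, and IL-6 replicate 3 lay below saline replicate 1. Oxct2a was among its genes below the 25th percentile of gene levels.

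Of the 28 other PPAR-alpha targets, 18 had differences above 0 and 10 below. Pdk4, a kinase that inhibits pyruvate dehydrogenase in fasting, was measured at 7.19, 6.34 and 6.81 in saline and at 7.15, 8.53 and 7.43 in IL-6. The groups overlapped and IL-6 replicate 2 stood far above the others. The difference was 0.92 ± 0.33 (limma adjusted p = 0.598), and it was 0.51 without IL-6 replicate 2.

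Fgf21, a fasting hormone induced by PPAR-alpha, was measured at 6.62, 6.50 and 7.01 in saline and at 5.99, 6.50 and 5.85 in IL-6. IL-6 replicate 2 lay just above saline replicate 2, so the groups met at that point, and the other IL-6 arrays were lower than all saline arrays. The difference was -0.59 ± 0.18 (limma adjusted p = 0.465), and no alternative brought its adjusted p under 0.134. Acot3, a peroxisomal thioesterase of the Acot family, had a difference of 0.31 ± 0.14 (limma adjusted p = 0.747), and 0.19 without saline replicate 2.

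Among regulators, Pparg, the fat cell relative of PPAR-alpha that also acts on Cd36, was measured at 6.75, 6.68 and 7.08 in saline and at 7.03, 7.27 and 7.28 in IL-6. The groups overlapped through saline replicate 3, and the difference was 0.36 ± 0.12 (limma adjusted p = 0.531). The coactivator genes Ppargc1a and Ppargc1b had differences of -0.17 ± 0.09 and -0.22 ± 0.10, and that of Ppargc1a was -0.10 without saline replicate 1. Lpin2, a lipin, had -0.30 ± 0.12 (limma adjusted p = 0.693). Of the other mitochondrial genes, Acsl4, which activates arachidonic acid, had -0.32 ± 0.10 (limma adjusted p = 0.496). For Acsl4 the IL-6 arrays lay below the saline arrays. The remaining genes with the lowest p of their lists included Acsm1 (0.12), Acad12 (-0.14), Acox2 (-0.17), Crot (0.12), the lactate and ketone transporter Slc16a1 (0.19) and Oxct1 (-0.15), none of which passed. Omitting saline replicate 2 gave 0.07 for Slc16a1, -0.08 for Oxct1, -0.08 for Acad12 and -0.11 for Acox2.

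**Figure D5:**
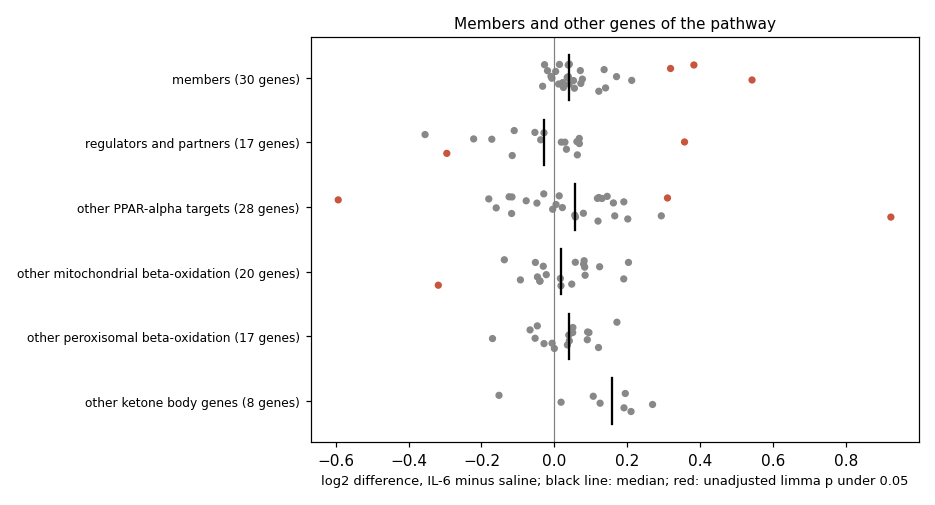
Log2 difference between IL-6 and saline for the 30 members and 90 other genes of the pathway, 1 point a gene, with the median of each list as a black line and genes at unadjusted limma p under 0.05 in red. The list medians lie between -0.03 and 0.16, and the outermost points are Pdk4 at 0.92 and Fgf21 at -0.59.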

How the data were processed

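Expression was measured in 6 mouse liver samples, 3 per group. The deposited values are log2 expression per probe set, and the submitters' processing notes name RMA as the tool. Its version and settings were not given in the sources used here. RMA equalises the distributions of the arrays, so a change shared by most genes would not be seen, and its probe summary may understate large changes. The values were used as deposited. Array medians ran from 5.42 to 5.48. The table held 35556 probe sets, of which the platform table gave 1 symbol to 21789 and several to 1621, and did not list 12146. The probe set with the highest mean was kept for each of 19938 genes, without a filter on dim genes. Groups were compared with limma 3.58.1 (R 4.3.3; lmFit, eBayes, two-sided, Benjamini-Hochberg over all genes), tested on simulated data. An exact permutation test of 3 against 3 cannot go below 0.1. Separate animals are not stated for the samples of a group, so p-values reflect only sample-to-sample spread, which may be technical, and the number of arrays limits the precision. Members and lists were chosen with earlier results of these data known. Values on each array are given for Ppara, Cpt1a, the member with the lowest p of each role and members at unadjusted p under 0.05. Of the other lists, genes among the 3 with the lowest p are named, plus Ppargc1a, and 1 ketone body gene is not reported here. Fabp1, chosen after its values were seen, is given for its groups that do not overlap, and Acot1, Acot4 and Acaa1a as relatives. Alternatives were other scalings, filters, probe set rules, variance priors, array weights, the replicate block and left-out arrays. Counts of positive differences, and alternatives for genes outside the members, were added after seeing the data. Figures used matplotlib 3.10.9 in Python 3.11.15.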

Additional observations from a re-analysis of the deposited data

How the results depend on the processing

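In limma, 0 of 30 members and 0 of 90 other pathway genes were called under each of the 19 alternatives, adjusted p under 0.10 included, with the lowest adjusted p of a member between 0.103 and 0.831. The count at unadjusted p under 0.05, 3 higher, was 1 when every probe set was tested, 1 without saline replicate 2 and IL-6 replicate 3 together, and 1 to 3 when single arrays were left out (1 on omitting replicate 1 or 2 of saline or replicate 2 of IL-6). The median difference stayed between 0.02 and 0.07, and 19 to 26 members were above 0. With the replicate block, 2 members were higher at unadjusted p under 0.05 and 0 were called. Deviations of same-numbered arrays correlated at 0.08, -0.12 and -0.09. These values cannot show whether same-numbered arrays shared any handling, which was not tested.

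Omitting a single array moved the difference by more than 1.5 times, or turned its sign, in 28 of 30 members, and omitting saline replicate 2 did so in 26. Differences near 0 turned sign in 13 members on leaving out single arrays. Their ranges were -0.0069 to 0.073 for Cpt1a, -0.0048 to 0.046 for Slc25a20, -0.031 to 0.032 for Etfb, -0.071 to 0.040 for Acsl5, -0.0033 to 0.060 for Slc27a2, -0.039 to 0.077 for Ppara, -0.022 to 0.11 for Ehhadh, -0.012 to 0.091 for Bdh1, -0.0078 to 0.051 for Acat1, -0.0091 to 0.035 for Decr1, -0.047 to 0.0048 for Acadvl, -0.025 to 0.022 for Hadhb and -0.0029 to 0.045 for Acads. Without saline replicate 2 and IL-6 replicate 3 together, Ppara was at -0.070, Acads at -0.015, Bdh1 at -0.036, Acat1 at -0.023 and Etfdh at -0.0047. Repeated quantile normalization put Slc25a20 at -0.0024, Ehhadh at -0.0042, Acat1 at -0.0050, Etfb at -0.0049 and Decr1 at -0.015. Cyclic loess put Etfb at -0.0016, and array weights put Acat1 at -0.0054 and Acsl5 at 0.0063. The cause was not tested. Scanner intensities were not used here, so signal over background was not assessed.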

Other observations

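Acot4, a peroxisomal relative of Acot3, was measured at 8.91, 8.25 and 8.63 in saline and at 8.74, 9.18 and 8.75 in IL-6. Acot3 was measured at 6.99, 6.50 and 6.73 in saline and at 6.91, 7.26 and 6.99 in IL-6. In Acot1, Acot2, Acot3, Acot4 and Pdk4 alike, saline replicate 2 was the lowest array and IL-6 replicate 2 the highest. These extremes were not particular to the Acot genes. They also held in Fabp1, Acaa1b, Hadha, Cpt2, Acaa1a, Plin2 and Me1. Over the 30 members, saline replicate 2 was lowest in 19 and IL-6 replicate 2 highest in 11. The share of all genes with both extremes was not counted. In Acot4 the difference was 0.29 ± 0.17 (standard error, limma adjusted p = 0.859), and it was 0.12 when saline replicate 2 was omitted and 0.15 when IL-6 replicate 2 was. Acot8, Acot9, Acot12 and Acot13 did not share both extremes, and in Acot8 saline replicate 1 was the lowest array.

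Most members were steady between arrays of a group. The residual SD had a median of 0.063 over the members, beside 0.109 over all genes and 0.095 over the 9969 genes above the median level. The median was 0.067 over the 17 other peroxisomal genes and 0.078 over the 9 hepatocyte markers, so such steadiness was not particular to the members. It ran from 0.101 to 0.154 in the remaining lists of the pathway. Among the members, the residual SD was lowest for Hadhb at 0.036 and Slc27a5 at 0.037. It was highest for Acot2 at 0.39, Vnn1 at 0.21 and Cd36 at 0.19.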
